A study of Rattus norvegicus with 39 samples.

Results

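Sst and Nos1 are 2 genes that mark a class of striatal interneurons, and their translated mRNA was followed here across all 8 groups of a RiboTag study of the nucleus accumbens (NAc). They were picked by identifier (ENSRNOG00000001837 for Sst, ENSRNOG00000001130 for Nos1) as 2 of the 23978 genes in the deposited count table. Sst encodes the precursor of somatostatin, a peptide released by inhibitory neurons. Nos1 encodes neuronal nitric oxide synthase, the enzyme that makes nitric oxide from arginine when calcium rises.

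The rats were adult female heterozygous transgenic Long-Evans animals of a D1-Cre or a D2-Cre line. All received an AAV in the NAc that, where Cre is present, expresses the ribosomal protein Rpl22 with an HA tag, and polyribosomes were then pulled down with an anti-HA antibody (IP). Cre is driven by Drd1a sequences in the D1-Cre line and by Drd2 sequences in the D2-Cre line, so that the libraries stand for D1- and D2-type medium spiny neurons (MSNs) as far as Cre activity and infection select them. Within each line, rats were treated in proestrus or in diestrus, with 6 injections of saline or of 10 mg/kg ketamine, and were killed 4 days after the last injection without drug, shortly after a return to the test chamber. Only ketamine rats whose locomotor response had grown over the injections entered sequencing, so ketamine and this selection cannot be told apart. There were 39 IP libraries, 1 per rat, with 5 in each group except the D2 proestrus ketamine group with 4. The unselected input RNA is not analysed here.

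In the striatum most neurons are projection neurons that express either the D1 or the D2 dopamine receptor, and interneurons are few. A well-known interneuron class makes somatostatin, neuropeptide Y and neuronal nitric oxide synthase together. Somatostatin acts on inhibitory G-protein-coupled receptors of nearby cells and terminals. Nitric oxide diffuses to neighbouring neurons and activates soluble guanylyl cyclase, which makes cGMP. cGMP in turn activates protein kinase G and is broken down by phosphodiesterases.

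For each gene the 100 bases around the RefSeq start site are shown, from 80 bases before to 20 bases after it (build GRCr8, 5′ to 3′ on the gene's strand). The Sst window is chr11:90461466-90461565 on the plus strand and the Nos1 window is chr12:44371818-44371917 on the minus strand. Capitals mark the letters TGACGTCA, a cAMP response element (CRE) that reads the same on both strands and is bound by CREB family factors.
Sst: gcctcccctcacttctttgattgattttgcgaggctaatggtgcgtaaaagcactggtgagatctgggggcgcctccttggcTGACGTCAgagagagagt
Nos1: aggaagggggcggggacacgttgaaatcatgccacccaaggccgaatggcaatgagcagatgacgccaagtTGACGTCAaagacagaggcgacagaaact
Each window held 1 copy, at bases 3 to 10 after the RefSeq start in Sst and at 9 to 2 bases before the RefSeq start in Nos1. These positions depend on the annotated starts, which were not checked. The same letters occurred in 612 of 33469 RefSeq rat promoters of 300 bases (1.83%), which are longer than the 100 bases shown. The shorter motif TGACG, which lies inside it, occurred on either strand in 21.2%. A match of letters is a description of the sequence only.

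Total counts ran from 2396517 to 43224256 per library with a median of 20494896. Library 39 (D2 diestrus saline) was the lowest and library 22 (D2 proestrus ketamine) the highest, and all others lay between 16118050 and 24784447. Sst counts ran from 360 in library 39 to 18586 in library 17 (D1 proestrus saline), and Nos1 counts from 31 to 1711 in the same 2 libraries. Levels are given as CPM normalized by TMM over all 39 libraries (normalized CPM, counts relative to the library total), which carry no correction for transcript length, so levels of different genes were not compared. Adora2a, the adenosine receptor gene that marks D2-type projection neurons, stood between 452 and 1063 in the 19 D2 libraries and between 141 and 221 in the 20 D1 libraries, which follows the line labels. None of the 6 D1 projection neuron markers listed (Drd1 and Pdyn among them) could be paired with an identifier, so the D1 label was not checked in this way. Only 1966 of the 23978 genes could be paired with a symbol here.

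Sst was higher in D1 than in D2 libraries in every stage and treatment. In D1 proestrus saline libraries it stood at 248, 335, 358, 526 and 767 normalized CPM. In D2 proestrus saline libraries it stood at 65.1, 119, 128, 133 and 276. The highest of these D2 libraries (library 5) lay above the lowest D1 library (library 25), so the groups overlapped by 1 library on each side. In D1 diestrus saline libraries Sst stood at 284, 339.6, 377, 402 and 508. In D2 diestrus saline libraries it stood at 109, 117, 136, 149.9 and 161. Here all D1 libraries lay above all D2 libraries.

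The same order held after ketamine. Sst stood at 300.5, 359, 397, 454 and 540.2 normalized CPM in D1 proestrus ketamine libraries, and at 109, 148, 181 and 239 in D2 proestrus ketamine libraries. It stood at 223, 324, 373, 515 and 662 in D1 diestrus ketamine libraries, and at 83.0, 116, 145, 167 and 176 in D2 diestrus ketamine libraries. Neither pair of groups overlapped. Over all stages and treatments, Sst averaged 415 ± 137 in the D1 line (SD, n = 20) and 145 ± 49.7 in the D2 line (SD, n = 19), and 18 of 20 D1 libraries exceeded every D2 library.

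Nos1 was likewise higher in D1 than in D2 libraries. In D1 proestrus saline libraries it stood at 14.6, 21.3, 38.0, 40.2 and 70.6 normalized CPM, against 6.54, 7.34, 12.3, 12.7 and 14.2 in the D2 libraries of that stage and treatment. In diestrus saline it stood at 18.7, 25.1, 30.7, 32.8 and 40.7 in D1, against 6.98, 7.45, 7.52, 8.76 and 12.9 in D2 libraries. The value of 12.9 came from library 39 and rests on 31 counts. Neither pair of groups overlapped for Nos1.

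After ketamine, Nos1 stood at 21.9, 27.0, 36.1, 39.3 and 39.3 normalized CPM in D1 proestrus libraries and at 7.66, 11.7, 11.8 and 17.1 in D2 proestrus libraries. In diestrus it stood at 22.5, 25.1, 28.6, 38.1 and 40.6 in D1 and at 4.69, 5.16, 6.92, 7.76 and 7.99 in D2 libraries. Again D1 and D2 libraries did not overlap, and the D2 diestrus ketamine group was the lowest of the 8. Over all stages and treatments, Nos1 averaged 32.6 ± 12.2 in the D1 line (SD, n = 20) and 9.34 ± 3.38 in the D2 line (SD, n = 19), and 19 of 20 D1 libraries exceeded every D2 library. Library 17 held the highest level of both genes.

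**Figure D1:**
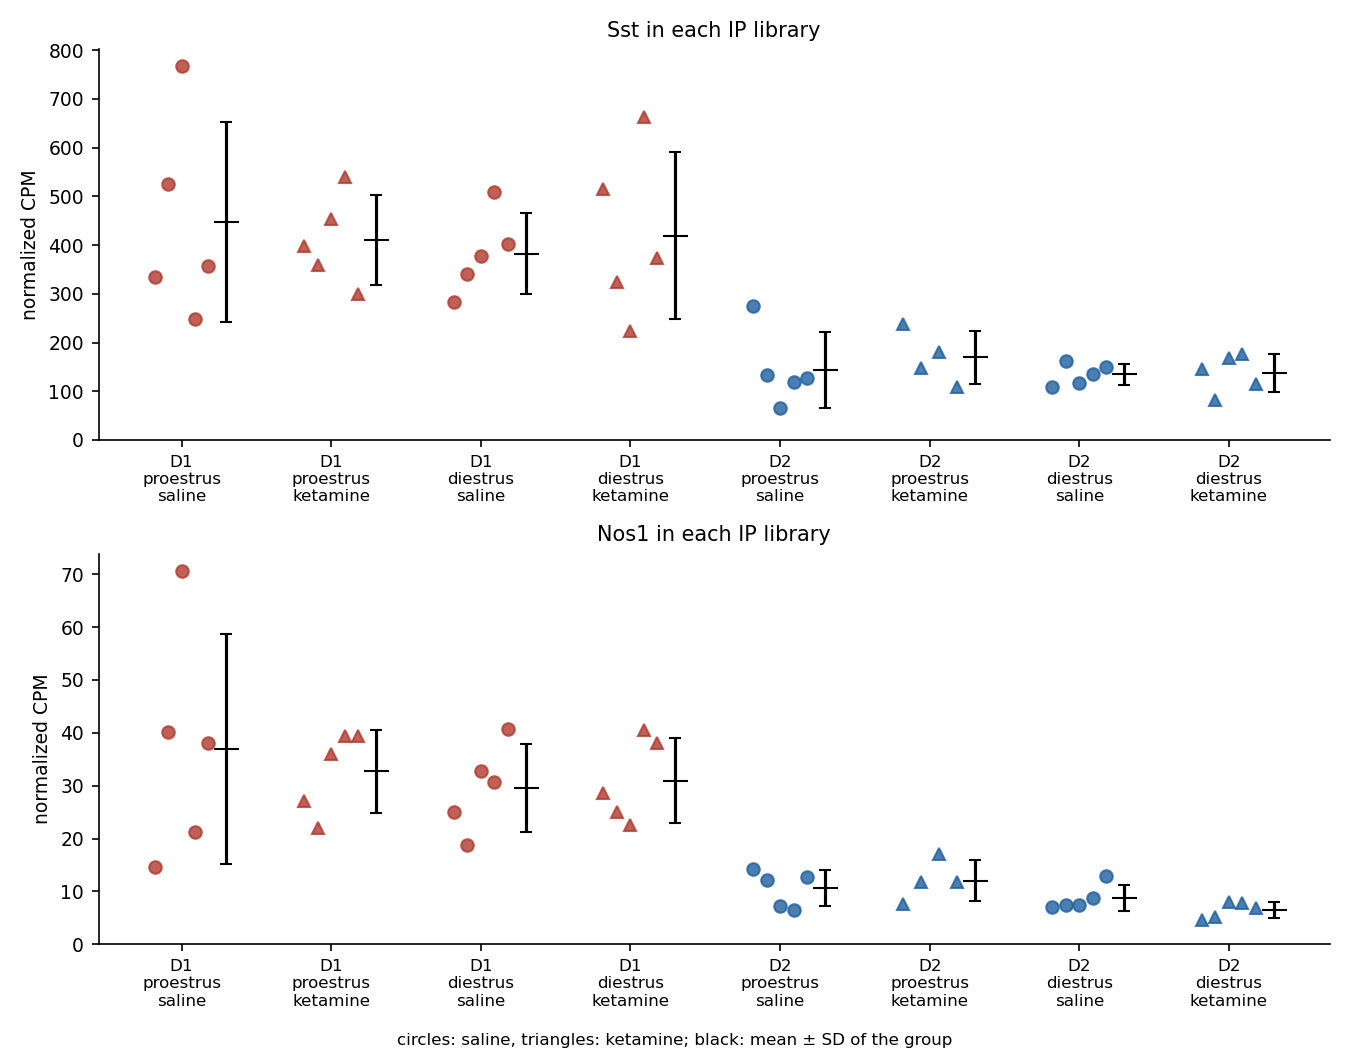
Normalized CPM of Sst (top) and Nos1 (bottom) in each of 39 IP libraries by group, with circles for saline, triangles for ketamine and the group mean ± SD in black. The 4 D1 groups (red) average between 382 and 447 for Sst and between 29.6 and 36.9 for Nos1, above the 4 D2 groups (blue), which average between 135 and 169 and between 6.51 and 12.1.

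Ordered by mean level, the 4 D1 groups came first and the 4 D2 groups last for both genes. For Sst the order ran from D1 proestrus saline (447 ± 205, SD, n = 5) to D2 diestrus saline (135 ± 21.8, SD, n = 5). For Nos1 it ran from D1 proestrus saline (36.9 ± 21.7, SD, n = 5) to D2 diestrus ketamine (6.51 ± 1.504, SD, n = 5). The first place of D1 proestrus saline rests on library 17. Without it the group's mean was 367 ± 116 for Sst and 28.5 ± 12.6 for Nos1 (SD, n = 4), below the means of the other 3 D1 groups. Of the 7 steps between neighbours in each order, only the step from the lowest D1 group (diestrus saline) to the highest D2 group (proestrus ketamine) had ranges that did not overlap (2-sided exact permutation test, p = 0.0159 for each gene, the smallest p that 5 against 4 libraries allow). For the other 6 steps of each order the ranges overlapped, with exact permutation p between 0.587 and 0.929 for Sst and between 0.127 and 0.817 for Nos1.

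Both genes were differentially expressed (DE) between D1 and D2 libraries over all saline rats. Positive log2 fold changes denote a D1 bias, and a gene was called DE at an adjusted p under 0.1. Sst had a log2 fold change of 1.61 (standard error 0.172, 95% interval 1.24 to 1.97, edgeR adjusted p = 6.22e-06), which is 3.04-fold. Nos1 had a log2 fold change of 1.78 (standard error 0.172, 95% interval 1.42 to 2.14, edgeR adjusted p = 9.14e-07), which is 3.44-fold. A DE call was common in this comparison, with 28.8% of 13689 genes called in either direction and 14.1% with a D1 bias. The 3941 genes called fell to 1237 without library 1, 1566 without library 17, 1916 without library 39 and 2450 without library 5, and both genes were called each time. The size was not common, as 0.307% of the tested genes had a higher log2 fold change than Sst and 0.190% a higher one than Nos1. Every D1 library exceeded every D2 library among saline rats in 0.948% of 14129 genes, Nos1 among them. A higher share of Sst or Nos1 cells among those pulled down and more of these mRNAs per cell cannot be told apart in such bulk libraries. The part of RNA from untagged cells in these levels was not tested.

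Among ketamine rats the D1 bias was of like size. Sst had a log2 fold change of 1.63 (standard error 0.158, 95% interval 1.29 to 1.97, edgeR adjusted p = 3.68e-06) and Nos1 of 1.82 (standard error 0.210, 95% interval 1.37 to 2.26, edgeR adjusted p = 2.01e-05). In that comparison 18.0% of 13850 genes were called in either direction and 9.83% with a D1 bias. Nos1 was again among the 0.977% of genes in which every D1 library exceeded every D2 library. The saline and ketamine comparisons use different rats.

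Within each stage both genes kept their D1 bias. In proestrus saline rats the log2 fold change was 1.35 for Sst (standard error 0.223, edgeR adjusted p = 0.0210) and 1.27 for Nos1 (standard error 0.240, edgeR adjusted p = 0.0218), where 2.60% of genes were called with a D1 bias. The 718 genes called in either direction there ran from 286 (without library 37) to 1697 (without library 5). The calls of Sst and Nos1 were lost without library 37 (D2 proestrus saline), at 1.14 with adjusted p = 0.148 for Sst and 1.22 with adjusted p = 0.163 for Nos1. With blocks of library numbers in place of surrogate variables, the Sst call was lost too (1.65, adjusted p = 0.170). In diestrus saline rats it was 1.47 for Sst (standard error 0.223, edgeR adjusted p = 0.0131) and 1.84 for Nos1 (standard error 0.255, edgeR adjusted p = 0.00341), where 2.38% of genes were called with a D1 bias. The 546 genes called in either direction ran from 273 (without library 23) to 1348 (with blocks). The Sst call was lost without library 23 (D2 diestrus saline), at 1.39 with adjusted p = 0.105. The mean level of Nos1 in D1 was 3.48 times that in D2 libraries in proestrus saline and 3.39 times in diestrus saline rats. The smaller proestrus value of the Nos1 fit was thus not seen in the levels.

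In proestrus ketamine rats the log2 fold change was 1.42 for Sst (standard error 0.110, edgeR adjusted p = 0.000185) and 1.40 for Nos1 (standard error 0.276, edgeR adjusted p = 0.0469), where 3.21% of genes were called with a D1 bias. The 748 genes called in either direction fell to 480 without library 2, 447 without surrogate variables and 394 with blocks. The Nos1 call was lost without library 6 (D2 proestrus ketamine, 1.18, adjusted p = 0.129) and without library 18 (D1 proestrus ketamine, 1.33, adjusted p = 0.108), and with no filter on low genes it just missed the threshold (adjusted p = 0.101). In diestrus ketamine rats it was 1.58 for Sst (standard error 0.280, edgeR adjusted p = 0.0211) and 2.23 for Nos1 (standard error 0.224, edgeR adjusted p = 0.00047), where 6.60% of genes were called with a D1 bias. The 1705 genes called in either direction fell to 611 without surrogate variables and 671 with blocks. The Nos1 value was the largest difference of either gene, at 4.70-fold.

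The levels shown above were also tested without surrogate variables. In 2-sided exact permutation tests of D1 against D2, p was 0.00794 for both genes in each diestrus comparison and for Nos1 in proestrus saline rats, the smallest p that 5 against 5 libraries allow. It was 0.0159 for Sst in proestrus saline rats, and 0.0159 for both genes in proestrus ketamine rats, the smallest p that 5 against 4 allow. Adjusted over the 24 permutation tests made for the 2 genes, these were 0.0381 and 0.0476. Among all 14129 genes, every D1 library exceeded every D2 library in 2.82% in proestrus saline, 3.00% in diestrus saline, 3.02% in proestrus ketamine and 2.38% in diestrus ketamine rats.

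**Figure D2:**
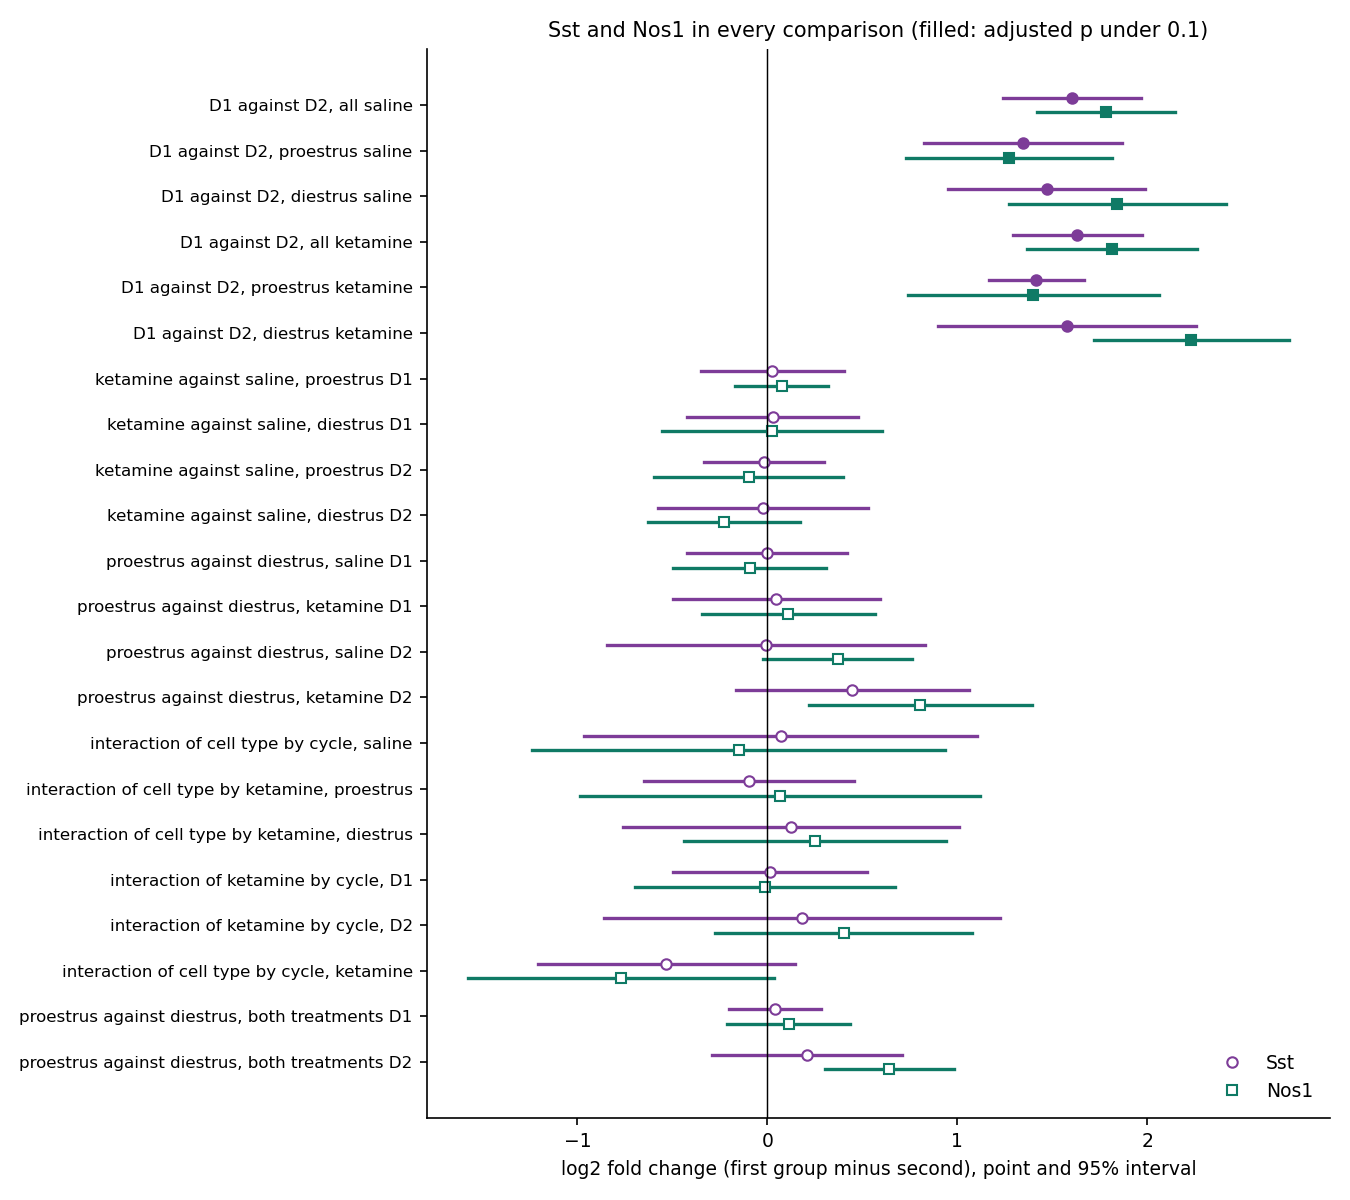
Log2 fold change (point) and 95% interval (line) of Sst (purple circles) and Nos1 (green squares) in every comparison, first group minus second, with filled symbols where the edgeR adjusted p was under 0.1. The 12 points of D1 against D2 lie between 1.27 and 2.23, and all points of ketamine, cycle stage and interactions are open and lie between -0.77 and 0.81.

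The next question was whether repeated ketamine changed either gene within a line and stage. Neither was called in any of the 4 comparisons with saline. In D1 libraries the log2 fold change of ketamine over saline for Sst was 0.03 in proestrus (95% interval -0.35 to 0.40) and 0.03 in diestrus (95% interval -0.42 to 0.48). For Nos1 it was 0.08 (95% interval -0.17 to 0.32) and 0.02 (95% interval -0.55 to 0.60). In proestrus the direction turned for both genes without surrogate variables, with blocks of library numbers and in 1 model of all libraries (-0.12, -0.045 and -0.11 for Sst, -0.17, -0.019 and -0.18 for Nos1), and the mean levels were 0.918 and 0.886 times those with saline. These values thus give no direction.

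In D2 libraries the log2 fold change of Sst was -0.02 in proestrus (95% interval -0.33 to 0.30) and -0.02 in diestrus (95% interval -0.58 to 0.53). For Nos1 it was -0.10 (95% interval -0.60 to 0.40) and -0.23 (95% interval -0.63 to 0.17). In proestrus the direction again turned under the same 3 settings (0.17 to 0.33 for Sst, 0.19 to 0.27 for Nos1), and the mean levels were 1.18 and 1.14 times those with saline. The Sst value in diestrus turned to 0.039 without surrogate variables and 0.011 with blocks. All 8 edgeR adjusted p were 0.946 or higher, and the exact permutation p of the levels ran from 0.127 to 0.897. Over all genes, edgeR called 0.00759% in D1 proestrus, 0.0227% in D1 diestrus, 0% in D2 proestrus and 0% in D2 diestrus libraries. An unadjusted p under 0.05 in edgeR was found for 764, 352, 457 and 355 genes in these 4 comparisons. DESeq2 called more genes in D1 libraries, 16 in proestrus and 10 in diestrus, and 1 and 0 in D2 libraries.

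Cycle stage was compared within each line and treatment. Sst was called in none of these comparisons, with log2 fold changes of proestrus over diestrus of -2.59e-05 in D1 saline (95% interval -0.42 to 0.42), 0.05 in D1 ketamine (-0.50 to 0.59), -0.01 in D2 saline (-0.84 to 0.83) and 0.45 in D2 ketamine libraries (-0.17 to 1.06). Nos1 in D1 libraries gave -0.09 with saline (-0.49 to 0.31) and 0.11 with ketamine (-0.35 to 0.57). In D1 saline libraries the values without surrogate variables, with blocks and in 1 model were positive, at 0.14 to 0.22 for Sst and 0.17 to 0.34 for Nos1, and the mean levels in proestrus were 1.17 and 1.25 times those in diestrus. The Sst values in D1 ketamine and D2 saline libraries also turned direction without surrogate variables and in 1 model. The D1 libraries of the 2 stages overlapped for both genes.

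Nos1 in D2 libraries was the member whose value differed most by stage, though it was not called. With ketamine, the proestrus libraries (7.66 to 17.1) lay above the diestrus libraries (4.69 to 7.99) except for library 6, with a log2 fold change of 0.81 (95% interval 0.22 to 1.39, unadjusted p = 0.0123, edgeR adjusted p = 0.998). The exact permutation test of the levels gave p = 0.0476, or 0.127 adjusted over the 24 tests, and it was 0.0571 or higher without any of 8 of the 9 libraries. With saline the log2 fold change was 0.37 (95% interval -0.02 to 0.76, edgeR adjusted p = 0.987). A fit of both treatments, added after these values had been seen, gave 0.64 (95% interval 0.30 to 0.98, unadjusted p = 0.000836) with an adjusted p of 0.585 in edgeR and of 0.0843 in DESeq2. For Sst the same fit gave 0.21 (95% interval -0.29 to 0.71, edgeR adjusted p = 0.828). In D1 libraries this fit gave 0.11 for Nos1 (-0.21 to 0.44) and 0.04 for Sst (-0.20 to 0.28), and 0.00736% of genes were called there.

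In the 4 comparisons of stage and in the D2 fit of both treatments, edgeR called 0% of genes. It gave an unadjusted p under 0.05 for 522 genes in D1 saline, 516 in D1 ketamine, 545 in D2 saline, 469 in D2 ketamine and 1091 in D2 libraries of both treatments. DESeq2 called 2, 2, 0, 4 and 9 genes.

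Interaction terms tested whether the D1 bias itself differed between stages or treatments. Each came from a fit of 4 groups with surrogate variables of its own, so it need not equal the difference of the values given above for single stages, and for Sst it has the opposite sign in saline rats and in proestrus. The difference in log2 fold change between proestrus and diestrus saline rats was 0.07 for Sst (95% interval -0.97 to 1.11) and -0.15 for Nos1 (-1.24 to 0.94). Between ketamine and saline it was -0.10 for Sst (-0.65 to 0.45) and 0.07 for Nos1 (-0.99 to 1.12) in proestrus, and 0.12 for Sst (-0.76 to 1.01) and 0.25 for Nos1 (-0.44 to 0.94) in diestrus. The Nos1 value in proestrus turned to between -0.41 and -0.24 without surrogate variables, with blocks and in 1 model. Among ketamine rats, in a test added after the data had been seen, the D1 bias in proestrus minus that in diestrus was -0.53 for Sst (-1.21 to 0.14) and -0.77 for Nos1 (-1.57 to 0.03, unadjusted p = 0.0592, edgeR adjusted p = 0.997).

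The interaction of ketamine with stage was 0.01 for Sst (-0.50 to 0.52, turned to between -0.28 and -0.24 under those settings) and -0.01 for Nos1 (-0.70 to 0.67) in D1, and 0.18 for Sst (-0.86 to 1.22) and 0.40 for Nos1 (-0.28 to 1.08) in D2 libraries. No gene was called by edgeR in any of these 6 interactions (0% each), with 243 to 668 genes at an unadjusted p under 0.05. DESeq2 called 6 genes for ketamine by stage in D1, 2 for cell type by stage among ketamine rats and 0 in the other 4. Differences of the D1 bias of up to 1.57 on the log2 scale lie within these intervals.

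Other markers were looked up in 15 lists of genes for interneurons, projection neurons, glia and vessels, somatostatin signalling and nitric oxide signalling, in which 19 of 106 genes could be paired with an identifier. Apart from Sst and Nos1, 16 of these were tested in saline rats, 7 with a D1 bias, 5 with a D2 bias and 4 not called, where 14.1% of all genes tested had a D1 bias and 14.6% a D2 bias. In ketamine rats 17 were tested, 5 with a D1 bias, 3 with a D2 bias and 9 not called, where the shares of all genes were 9.83% and 8.16%. The listed genes were chosen with earlier results known, so these counts are a description. Their median log2 fold change was 0.10 in saline and 0.03 in ketamine rats, beside medians of -0.000546 and -0.000325 over all genes tested. None of them was called in any comparison of ketamine, cycle stage or interaction.

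In the list of SST/NPY/NOS1 interneuron markers, 3 of 10 genes could be paired (Npy could not), and all 3 had a D1 bias in saline and in ketamine rats. The gene beside Sst and Nos1 is Chodl, which encodes a membrane lectin that marks this class of somatostatin neurons in cortex and striatum. In saline rats Chodl ran from 6.89 through a median of 10.6 to 12.8 normalized CPM in 10 D1 libraries, and from 3.50 through 4.97 to 5.72 in 10 D2 libraries. In ketamine rats it ran from 8.44 through 10.4 to 13.8 in 10 D1 and from 3.13 through 4.41 to 5.76 in 9 D2 libraries. All 20 D1 libraries thus lay above all 19 D2 libraries, as in 0.488% of 14129 genes. The log2 fold change was 1.14 in saline (standard error 0.111, edgeR adjusted p = 1.83e-07) and 1.28 in ketamine rats (standard error 0.117, edgeR adjusted p = 2.41e-08). It was called in each stage and treatment too, from 1.03 in proestrus saline to 1.43 in diestrus ketamine rats.

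Kit, which encodes the stem cell factor receptor and stands in the list of parvalbumin interneuron markers (1 of 7 paired), averaged 37.9 ± 5.56 in the D1 line (SD, n = 10) and 21.9 ± 8.45 in the D2 line (SD, n = 10) with saline, a log2 fold change of 0.85 (edgeR adjusted p = 0.000944). In ketamine rats it was 0.64 (edgeR adjusted p = 0.000299). By stage, Kit was not called in proestrus saline rats (0.48, edgeR adjusted p = 0.281) and had a D1 bias of 0.70 to 0.79 in the other 3 comparisons. Unlike for Chodl, the Kit levels of the lines overlapped, and 9 of 20 D1 libraries exceeded every D2 library. Dlx1, a homeobox gene of forebrain GABAergic neurons, had log2 fold changes of 0.77 in saline (edgeR adjusted p = 9.11e-05) and 0.55 in ketamine rats (edgeR adjusted p = 0.0134). Neither Dlx1 call held in a single model of all 39 libraries, at 0.56 (adjusted p = 0.111) and 0.38 (adjusted p = 0.203), and the call in ketamine rats was also lost without surrogate variables (0.44, adjusted p = 0.171).

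By stage, Dlx1 was called in proestrus saline (0.57), diestrus saline (0.62) and diestrus ketamine rats (0.50), and not in proestrus ketamine rats (0.46, edgeR adjusted p = 0.362).

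Dlx2, a related homeobox gene, had a log2 fold change of 0.28 in saline (edgeR adjusted p = 0.0250), lost without any 1 of 8 libraries (1, 9, 11, 13, 17, 27, 33 or 39, at 0.09 to 0.34) and under 3 of 6 other settings, and 0.21 in ketamine rats (edgeR adjusted p = 0.348). Gad1, the GABA-synthesizing enzyme of interneurons and projection neurons alike, had 0.11 in saline (edgeR adjusted p = 0.0591), which was 0.01 to 0.09 and not called without 7 single libraries (1, 5, 7, 11, 17, 25 or 39), was lost without surrogate variables (adjusted p = 0.115) and turned to -0.0083 in 1 model of all libraries, and 0.03 in ketamine rats (edgeR adjusted p = 0.585). No gene of the lists for cholinergic or other interneurons or for glutamatergic neurons could be paired.

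**Figure D3:**
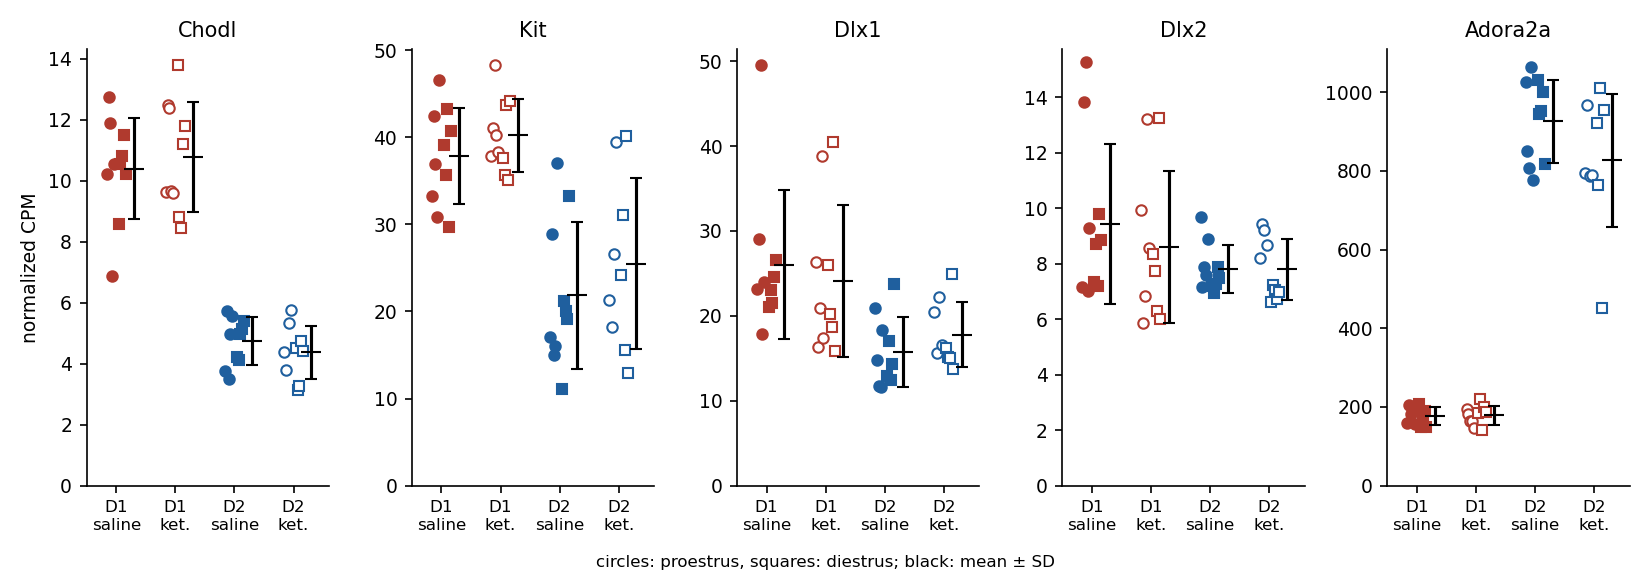
Normalized CPM of 4 markers of GABAergic cells and of Adora2a in each library, by line and treatment, with circles for proestrus, squares for diestrus and the mean ± SD in black. Chodl separates all 20 D1 from all 19 D2 libraries, Kit, Dlx1 and Dlx2 overlap between the lines, and Adora2a runs the other way.

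The D2 projection neuron marker Adora2a had a log2 fold change of -2.38 in saline and -2.14 in ketamine rats (edgeR adjusted p = 2.91e-15 and 2.75e-10). Rgs9, a regulator of G-protein signalling found in all striatal projection neurons, had -0.23 in saline (edgeR adjusted p = 0.00176, not called without library 1 at -0.10 or in 1 model of all libraries at -0.0083) and -0.02 in ketamine rats (edgeR adjusted p = 0.928). Of 10 glial and vessel markers 4 could be paired. In saline rats 2 of these had a D2 bias, namely Flt1 (vessels, -0.82, edgeR adjusted p = 0.0105) and Mog (myelin, -0.51, edgeR adjusted p = 0.0239), beside 14.6% of all genes, and Gfap and Pdgfra were not called (-0.38 and -0.24). Both calls were lost without library 1, 17 or 39, and that of Mog also without library 5. In ketamine rats Flt1 and Pdgfra had a D2 bias (-0.69 and -0.32), beside 8.16% of all genes, and Pdgfra was not called without library 12, 16 or 30 or in 1 model of all libraries (adjusted p = 0.143). Gfap and Mog, both at -0.28 in ketamine rats, were not called by edgeR (adjusted p = 0.192 and 0.240), and DESeq2 called Gfap (adjusted p = 0.0961). Within diestrus ketamine rats, 3 of the 4 had a D2 bias, beside 6.16% of all genes, namely Flt1 (-1.03), Pdgfra (-0.54) and Mog (-0.43), with Gfap at -0.45 (edgeR adjusted p = 0.105, DESeq2 adjusted p = 0.0132). The call of Mog there held without only 3 of the 10 libraries taken singly and under 3 of 6 other settings, and that of Pdgfra without any 1 library and under 4 of 6. Neither edgeR nor DESeq2 called any of the 4 in the other 3 line comparisons within a stage, where 4 of 12 unadjusted edgeR p-values were under 0.05 and a D2 bias was called for 2.80% of all genes in proestrus saline, 1.73% in diestrus saline and 2.40% in proestrus ketamine rats. These 12 log2 fold changes went both ways. Gfap in proestrus saline (0.33) and Pdgfra and Mog in diestrus saline rats (0.45 and 0.01) were higher in D1, and the rest were lower. Flt1 in proestrus saline rats (-0.80) was called under 2 of 6 other settings and without 3 of 10 libraries taken singly.

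The summed level of the 4 glial and vessel markers ran from 25.2 through a median of 36.0 to 46.6 normalized CPM in D1 libraries and from 31.3 through 40.8 to 98.4 in D2 libraries. None of the 4 was at 0 in any library. The ranges of the lines overlapped, with the higher median in the line where Sst and Nos1 were lower. The part of RNA from such cells in the levels of Sst and Nos1 was not tested.

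The genes that receive or carry the 2 signals were measured only in part. Of 5 somatostatin receptor genes only Sstr2 could be paired, and it was not called (log2 fold change 0.10 in saline, edgeR adjusted p = 0.486, and 0.15 in ketamine rats, edgeR adjusted p = 0.297). Its level averaged 16.7 ± 2.31 in the D1 line (SD, n = 20) and 15.9 ± 3.01 in the D2 line (SD, n = 19). Of 12 genes for peptide processing and dense core vesicles only Vgf could be paired, a granin-like secreted protein, with a D1 bias of 0.17 in saline (edgeR adjusted p = 0.0919), which was not called without any 1 of 16 of the 20 libraries or under 4 of 6 other settings, and 0.16 in ketamine rats (edgeR adjusted p = 0.146). In ketamine rats Vgf was called by DESeq2 (0.16, adjusted p = 0.0873), under none of the other 5 settings, and by edgeR without library 10 or 16.

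On the nitric oxide side, Nos1 was the member of the 3 synthase genes that could be paired. Of its 11 listed partners, Rasd1, a small G protein that is nitrosylated by way of Nos1, had a D2 bias of -0.18 in saline (edgeR adjusted p = 0.0738), which was not called without any 1 of 13 of the 20 libraries or under 2 of 6 other settings, and -0.24 in ketamine rats (edgeR adjusted p = 0.115), which was called under 3 of 6 other settings. Ddah2, which breaks down an inhibitor of the synthases, passed the filter only in ketamine rats and was not called (-0.81, standard error 1.20). The median summed level of Rasd1 and Ddah2 was 22.1 in D1 and 28.1 in D2 proestrus saline libraries. In proestrus ketamine libraries it was 21.1 in D1 and 31.1 in D2. In diestrus it was 22.8 in both lines with saline, and 21.7 in D1 and 22.0 in D2 libraries with ketamine. In the cGMP pathway 2 of 11 genes could be paired. Pde9a, a phosphodiesterase specific for cGMP, had a D1 bias of 0.53 in saline (edgeR adjusted p = 9.79e-06) and of 0.53 in ketamine rats (edgeR adjusted p = 1.47e-06). Prkg2, a cGMP-dependent kinase, had 0.26 in saline (edgeR adjusted p = 0.143) and a D1 bias of 0.25 in ketamine rats (edgeR adjusted p = 0.0523), not called without library 28.

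**Figure D4:**
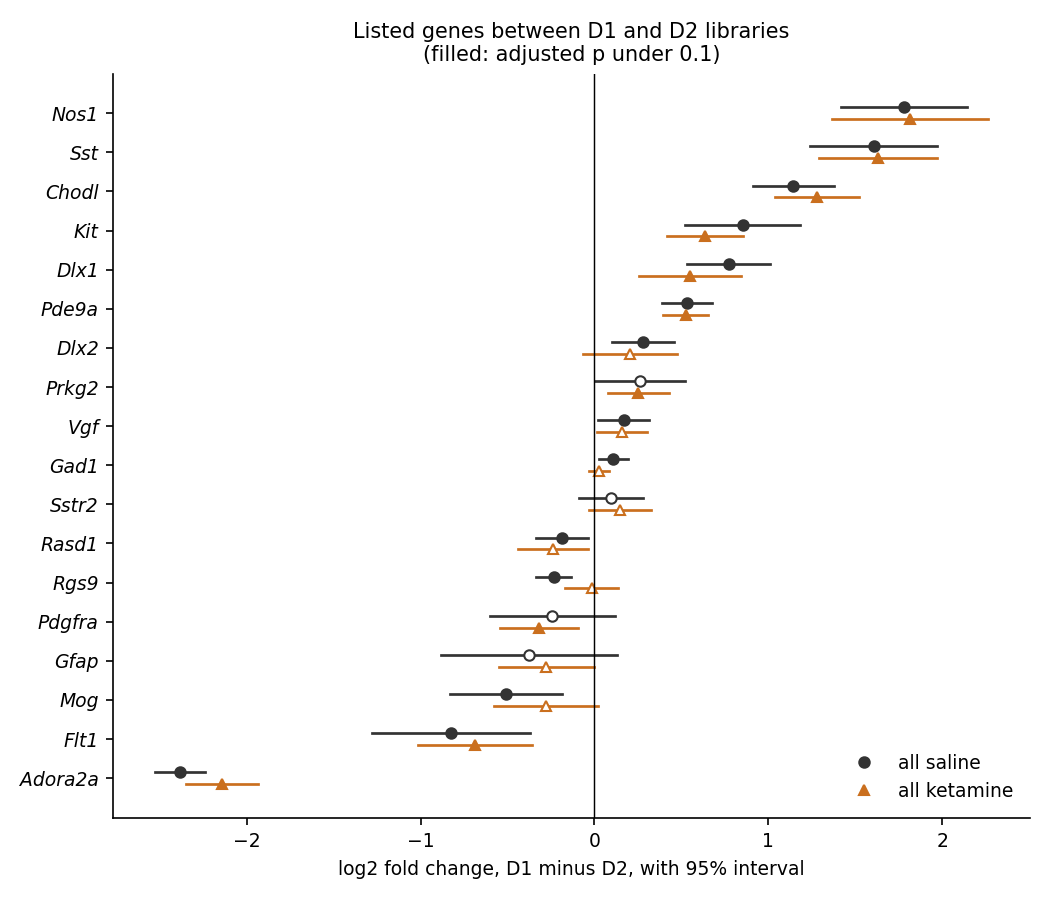
Log2 fold change of D1 minus D2 with its 95% interval for the 18 listed genes tested in saline rats (black circles), and for the same genes in ketamine rats (orange triangles), with filled symbols where the edgeR adjusted p was under 0.1. Nos1, Sst and Chodl lie highest, from 1.14 to 1.82, and Adora2a lowest, at -2.38 and -2.14.

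Whether the 2 genes also varied together among rats of a line was tested on log2 CPM within each line, since the lines form separate clusters. Over the 20 D1 libraries Pearson's r was 0.68 (permutation p = 0.00106) and Spearman's rho 0.68 (permutation p = 0.00135). Adjusted over the 2 relations computed, these p were 0.00212 and 0.00270. Without the 2 libraries farthest from the median of Sst (17 and 28), r was 0.51 (permutation p = 0.0324). Leaving out single libraries gave r between 0.55 (without library 17) and 0.73.

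Over the 19 D2 libraries the values were lower, with r of 0.40 (permutation p = 0.0884, adjusted 0.0884) and rho of 0.51 (permutation p = 0.0267, adjusted 0.0267). Without the 2 libraries farthest from the median of Sst (21 and 5), r was 0.28 (permutation p = 0.282). Deviations from the 4 group means within a line gave r of 0.67 in D1 (permutation p = 0.00108) and 0.41 in D2 libraries (permutation p = 0.0796), and rho of 0.60 (permutation p = 0.00565) and 0.44 (permutation p = 0.0622). Whether the 2 lines differed in r was not tested. By r of deviations from the 8 group means over all 39 libraries, Nos1 was 297th of 12504 genes for Sst. By the same measure Sst was 654th for Nos1. Many genes thus varied with either gene more closely than the 2 did with each other.

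**Figure D5:**
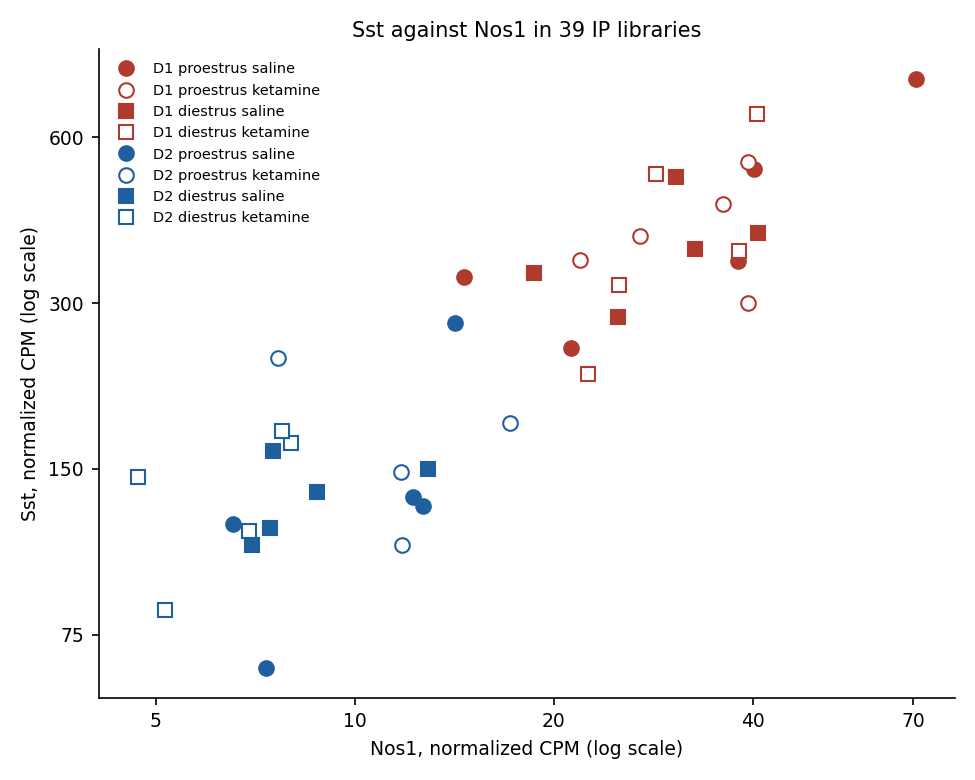
Sst against Nos1 in 39 libraries, both as normalized CPM on log axes, with D1 in red, D2 in blue, circles for proestrus, squares for diestrus, filled symbols for saline and open symbols for ketamine. The lines form separate clouds, with r of 0.68 within D1 and 0.40 within D2 libraries, and library 17 (D1 proestrus saline) is at the top right.

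Among 12504 genes with a mean of at least 1 CPM, the genes most like Sst over all 39 libraries were described by Pearson's r of log2 CPM. These r share the line difference and the library totals and are given as a description. Of the 1426 with a symbol, the closest to Sst were Nek7 (r = 0.93), Nos1 (0.88), Chodl (0.87), Fstl1 (0.85) and Opn3 (0.84). Nos1 was 13th and Chodl 21st among all genes. The closest to Nos1 were Nek7 (0.89), Cadm3 (0.89), Chodl (0.88), Sst (0.88) and Atp6v1a (0.86). Nek7 is a protein kinase, Fstl1 a secreted glycoprotein, Opn3 an opsin, Cadm3 a neuronal adhesion molecule and Atp6v1a a subunit of the vesicular proton pump.

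Once the 8 group means were taken out, the closest of the 1426 genes with a symbol changed in part, and genes without a symbol stood among and above them. Among the closest to Sst were then Rgs4 (r = 0.83), Fstl1 (0.81), Nptx1 (0.78) and Dlx1 (0.76), with Nos1 at 0.55 and Chodl at 0.39. Rgs4 was 5th, Dlx1 37th, Nos1 297th and Chodl 861st among all 12504 genes. The closest to Nos1 among genes with a symbol were Nsf (0.76), Cadm3 (0.76), Ptpn4 (0.75), Sobp (0.74) and Gsk3b (0.73), with Chodl at 0.34. Nsf was 23rd, Gsk3b 56th, Sst 654th and Chodl 2166th among all genes. Nsf encodes the ATPase of vesicle fusion, Nptx1 a synaptic pentraxin and Rgs4 a regulator of G-protein signalling.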

How the data were processed

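Polyribosome-bound mRNA from HA-tag IP was sequenced in 39 libraries, 1 per rat. Per the labels and the study's methods, the authors trimmed reads with fastp 0.23.4, quantified transcripts of the mRatBN7.2 build with Salmon 1.10.2 and summed them per gene. The deposited values are expected counts in whole numbers, not normalized. The authors left out 1 D2 proestrus ketamine library, which is not analysed here. The study's own tables of fold changes and p-values were used only to pair identifiers with symbols (1966 of 23978). Salmon shares reads that fit several genes among them by estimate, so counts of near-identical copies are uncertain.

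Each comparison was fitted in its own libraries in R 4.3.3. filterByExpr removed low genes (at least 10 counts), TMM factors were computed, and svaseq (sva 3.50.0) gave 2 surrogate variables for the design. The quasi-likelihood test of edgeR 4.0.16 then gave p-values, adjusted by Benjamini-Hochberg across all tested genes. An adjusted p below 0.1 counted as a call. DESeq2 1.42.0 served as the alternative. Levels were compared by 2-sided exact permutation tests, and relations by 100000 permutations of log2 CPM with a prior count of 0.5. The steps were also run on simulated counts with a single dispersion for all genes and no hidden factor. Such counts cannot show how the surrogate variables act on the present data. Counting error weighs most on low genes and on library 39, with 2396517 counts in all and 31 for Nos1.

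Sst, Nos1 and the gene lists were chosen with earlier results of these data known. Named genes were all listed genes that could be paired, up to 4 a list, and the 5 closest by r, apart from genes that are not reported here. For Chodl, Kit, Dlx1, Dlx2 and Adora2a, values per library or stage were added after they had been seen. Alternatives were no surrogate variable, DESeq2 with the same surrogate variables, DESeq2 size factors, no filter, 1 model of all libraries, blocks of 8 library numbers, CPM without TMM, and each library left out. Promoters are from RefSeq (GRCr8), and both members matched by symbol.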

Additional observations from a re-analysis of the deposited data

Results flagged for a closer look

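In 56 groups of 4 or 5 libraries (Sst, Nos1, Chodl, Kit, Dlx1, Dlx2 and Adora2a in 8 groups each) the highest and the lowest library were compared with the rest by Dixon's rule. It picked out 2 libraries, fewer than the 1 in 20 groups that chance picks out. Dlx1 stood at 25.0 normalized CPM in library 32 (D2 diestrus ketamine), where the other 4 libraries lay between 13.7 and 16.2. Adora2a stood at 967 normalized CPM in library 22 (D2 proestrus ketamine), the library with the most counts, where the other 3 lay between 786 and 795. Neither library stood apart in this way for Sst or Nos1.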

How the results depend on the processing

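The D1 bias of Sst and Nos1 over all saline and over all ketamine rats was called under every alternative, with log2 fold changes of 1.48 to 1.61 and 1.43 to 1.63 for Sst and of 1.75 to 1.90 and 1.82 to 1.90 for Nos1, and with any library left out (1.33 to 1.82, 1.53 to 1.69, 1.49 to 1.98 and 1.67 to 1.97). Within a stage, 2 calls were lost otherwise, Sst in proestrus saline rats with blocks of library numbers (1.65, adjusted p = 0.170) and Nos1 in proestrus ketamine rats without a filter (1.40, adjusted p = 0.101). With a library left out these ran from 1.14 to 1.77 and from 1.14 to 1.59, Sst in diestrus saline rats from 1.26 to 1.63, and Nos1 in proestrus saline rats from 1.11 to 1.45. Under the 6 other settings Nos1 in proestrus saline rats ran from 1.26 to 1.85. The log2 ratio of Nos1 levels in D2 proestrus over D2 diestrus ketamine libraries ran from 0.67 to 1.06. Nos1 by stage in D2 libraries of both treatments was called only by DESeq2 (0.64, adjusted p = 0.0843).

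Gad1 in saline rats was the only called value that turned direction, and the others that turned were not called. Without surrogate variables, with blocks and in 1 model of all libraries, ketamine in proestrus D1 gave -0.12, -0.045 and -0.11 for Sst and -0.17, -0.019 and -0.18 for Nos1, and in proestrus D2 0.23, 0.33 and 0.17 for Sst and 0.19, 0.27 and 0.23 for Nos1. Stage in saline D1 gave 0.22, 0.14 and 0.22 for Sst and 0.32, 0.17 and 0.34 for Nos1, the interaction of cell type by ketamine in proestrus -0.36, -0.24 and -0.41 for Nos1, and ketamine by stage in D1 -0.26, -0.28 and -0.24 for Sst. Without surrogate variables and with blocks, Sst for ketamine in diestrus D2 gave 0.039 and 0.011. Without surrogate variables and in 1 model, Sst by stage gave -0.035 and -0.028 in ketamine D1 and 0.10 and 0.076 in saline D2. Sst by stage in saline D1 gave 0.0027 in DESeq2 and 0.0013 with its size factors. In 1 model Gad1 gave -0.0083 and -0.0065 (saline, ketamine), Rgs9 0.014 and Ddah2 0.052 in ketamine rats. The causes were not tested.

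With a library left out, Sst for ketamine ran from -0.095 to 0.10 (proestrus D1), -0.074 to 0.18 (diestrus D1), -0.046 to 0.22 (proestrus D2) and -0.17 to 0.10 (diestrus D2), and Nos1 from -0.16 to 0.24, -0.12 to 0.21 and -0.23 to 0.17 in the first 3. By stage, Sst ran from -0.088 to 0.21 (saline D1), -0.11 to 0.19 (ketamine D1), -0.30 to 0.25 (saline D2) and -0.015 to 0.10 (both treatments D1), and Nos1 from -0.21 to 0.13 (saline D1) and -0.0048 to 0.23 (ketamine D1). Cell type by stage in saline rats ran from -0.22 to 0.42 for Sst and -0.54 to 0.040 for Nos1, cell type by ketamine in proestrus from -0.21 to 0.052 and -0.18 to 0.30, in diestrus from -0.12 to 0.35 for Sst, and ketamine by stage from -0.11 to 0.12 for Sst and -0.22 to 0.16 for Nos1 in D1 and from -0.058 to 0.54 for Sst in D2. Gfap ran from -0.45 to 0.16 and Pdgfra from -0.29 to 0.038 in saline rats, and Rgs9 from -0.10 to 0.024 in ketamine rats.

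The number of genes called moved by over 1.5 times for all saline rats (3941 genes, 1848 in 1 model, and 1237, 2450, 1566 and 1916 without library 1, 5, 17 and 39), proestrus saline (718, and 1697, 467, 376, 422 and 286 without library 5, 13, 25, 33 and 37), diestrus saline (546, 1076 without surrogate variables, 1348 with blocks, 854 in 1 model, and 273, 308 and 925 without library 23, 31 and 39), proestrus ketamine (748, 447 without surrogate variables, 394 with blocks and 480 without library 2) and diestrus ketamine rats (1705, 611 without surrogate variables and 671 with blocks). No paired analysis was possible because library numbers are not shared between groups and nothing in the labels pairs rats. The blocks of 8 consecutive numbers, with at most 1 library of each group, are a covariate in place of that. Few counts limit Nos1 in library 39, and 4 or 5 rats a group limit every comparison of treatment and stage.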

Other observations

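The ratio of Sst to Nos1 counts within a library does not depend on the library total or on the scaling. It was examined after the levels had been seen. Its median was 12.8 in 20 D1 libraries (7.64 to 22.9) and 15.7 in 19 D2 libraries (8.86 to 31.2), so the ranges overlapped widely. Among the groups the median was highest in D2 diestrus ketamine libraries, at 20.9, where Nos1 was lowest. Of 12 comparisons between groups, the log2 ratio was lower in D1 than in D2 libraries in diestrus ketamine rats by -0.68 (2-sided exact permutation test, p = 0.0397, adjusted over the 12 comparisons 0.381). The next was ketamine against saline in D2 diestrus libraries, at 0.41 (exact permutation p = 0.0635, adjusted 0.381). For the other 10 the exact permutation p ran from 0.206 to 0.976. No comparison held after adjustment.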
